A study of Rattus norvegicus with 14 samples.

Results

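The proximal part of rat chromosome 2 between 2 and 10 Mb (assembly rn7) was read in 286 of the 194367 windows of 1 kb in which methylation was deposited, and 190 of these windows had a value in all 14 samples. A window belonged to the interval when it started after 2 Mb and ended at or before 10 Mb. The tissue was the left soleus, a slow-twitch postural muscle of the calf, of female rats aged 23 to 24 months from generation 44 of lines bred for running capacity. The high-capacity line (HCR, 6 samples) and the low-capacity line (LCR, 8 samples) both descend from the genetically mixed N:NIH stock, received standard chow, and have no treatment named in the labels. Whether the numbered samples were separate rats is not stated in the labels, and a p-value may therefore reflect technical spread only. The interval was chosen by the measured HCR and LCR levels of its windows, in these same samples. Line differences are therefore given as a description, and nothing is inferred from how many there were.

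DNA methylation in mammals is mostly the addition of a methyl group to cytosines followed by guanine (CpG). Most CpGs are methylated, whereas dense groups of CpGs, called CpG islands and often found at promoters, are usually free of methylation, with a graded border between these states. Methylation of a CpG tends to resemble that of its near neighbours and can depend on the DNA sequence around it. Reduced representation bisulfite sequencing (RRBS) reads CpG-rich fragments cut by the enzyme MspI, and bisulfite turns unmethylated but not methylated cytosines into a base read as thymine. Each value below is the percentage of methylated cytosine calls in one window of one sample, so that a change at a few CpGs is averaged with the rest of the window. Genes, CpG positions and sequence at these windows were not analysed here, since the reference tables at hand are of another assembly.

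The interval was sparsely covered and more methylated than the table as a whole. It held 35.8 windows per Mb, against a median of 57 over the 2472 Mb of the autosomes, and the windows covered 3.58% of its length. Neighbouring windows started a median of 17 kb apart, against 5 kb over the table, and the widest distance was 215 kb. Of the 190 windows with complete values, 42 (22.1%) had a mean under 10%, against 26.6% of all such windows. Means of 50 to 70% were seen in 62 windows (32.6%, against 24.2%) and means of 70% or more in 33 (17.4%, against 10.8%). The mean level over the interval was 42.8% ± 1.22 (SD, n = 6) in HCR and 42.4% ± 0.772 (SD, n = 8) in LCR, and the lines overlapped, with samples from 40.95% to 44.2% and from 41.4% to 43.8%. Over all complete windows the means were 35.96% and 34.85%, so the lines differed by 0.36 points in the interval and by 1.12 points over the table.

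The windows next to the interval on both sides were not called. The last window before it, at 1500001 to 1501000, lay 572 kb from the first one inside and had 47.7% ± 7.17 in HCR and 55.1% ± 18.5 in LCR. The first window inside, at 2072001 to 2073000, had means of 36.2% for HCR and 18.7% for LCR, a difference of 17.5 points (SE 6.47), and was not called. The last one inside, at 9991001 to 9992000, was read in 11 samples, with means of 39.2% and 35.7%. The next, at 10017001 to 10018000, had 53.9% and 54.4%.

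The number of windows without a value did not set the lines apart. An HCR sample lacked a value in 15.8 ± 10.3 of the 286 windows (SD, n = 6) and an LCR sample in 15.4 ± 16.4 (SD, n = 8). The difference of 0.458 windows lay well within the SD of either line (p = 0.96, two-sided exact permutation test). LCR replicate 7 lacked the most, 49 windows (17.1%, and 12.1% over the table), while LCR replicates 1 and 3 lacked 0. Among the 96 windows that lacked a value in some sample, 28 lacked it in HCR samples alone, 28 in LCR samples alone and 40 in both lines. Read depth is unknown, because the table holds percentages without counts.

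The line differences of the interval were concentrated before 5 Mb and went in both directions. By limma over 135802 complete windows of the table, at a Benjamini-Hochberg adjusted p under 0.05, 16 of the 190 windows were called (8.42%), against 0.569% of all windows, and the choice of the interval used this contrast. Of these 8 were higher in HCR (0.405% of all windows) and 8 were lower (0.164%). Centring each library on its own mean gave 15 calls (0.492% of all windows), of which 6 were higher in HCR (0.251%) and 9 lower (0.241%). Quantile normalization also gave 15 (0.497%), again 6 higher (0.263%) and 9 lower (0.234%). Of these 15 calls, 14 were shared with the uncentred fit in either case. There were 15 calls among the 98 complete windows before 5 Mb and 1 call among the 92 after it. The division at 5 Mb was chosen after seeing the data. The median size of the difference was 5.18 points at 2 to 3 Mb, 4.02 at 3 to 4 Mb and 2.54 at 4 to 5 Mb. In the following megabases it lay between 0.853 and 2.68 points. Over all complete windows of the table it was 1.76 points, and over the rest of chromosome 2 it was 1.73.

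**Figure D1:**
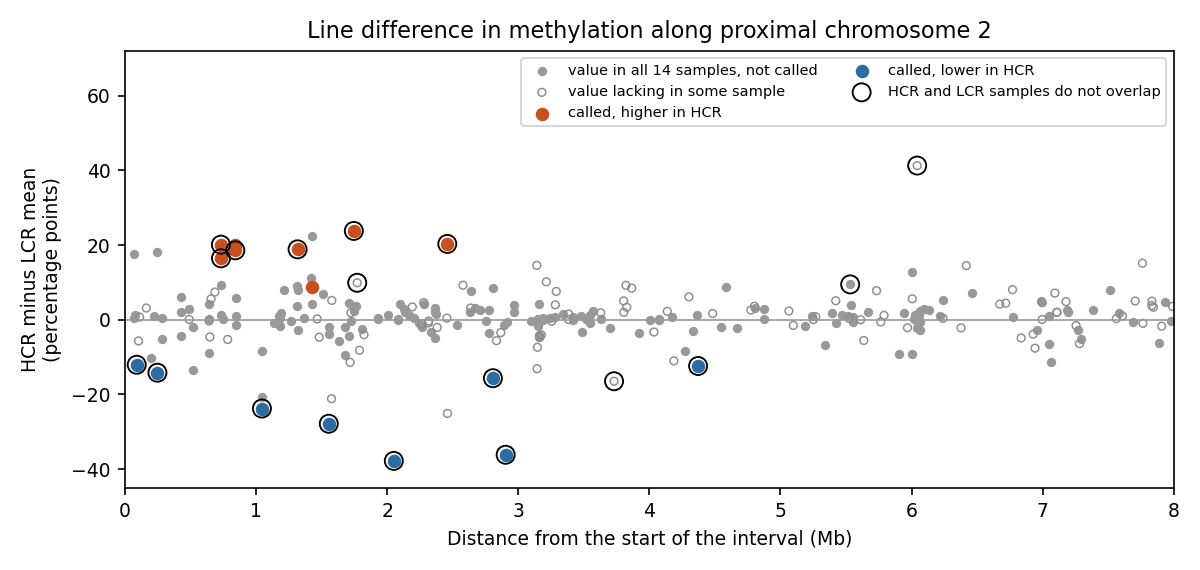
HCR mean minus LCR mean in percentage points for the 286 windows, against distance from the start of the interval in Mb. Filled grey points are complete windows that were not called, small open points lack a value in some sample, orange and blue points are the 16 called windows, and black rings mark windows whose HCR and LCR samples did not overlap. All but 1 of the called points lie in the first 3 Mb, above and below 0.

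In 15 of the 190 complete windows (7.89%) no HCR sample lay within the range of the LCR samples, against 0.710% of all complete windows. HCR was the higher line in 7 of them (0.558% of all windows) and the lower in 8 (0.152%). Of the 16 called windows 14 were separated in this way. Differences of at least 20 points were seen in 9 windows (4.74%, against 0.337% over the table) and of at least 10 points in 24 (12.6%, against 3.9%). Called windows were not of one level. The share called in each level class was not computed over the table. The counts that follow can therefore not be read as particular to the interval. Of the 29 windows with a mean of 10 to 30% 8 were called, of the 24 at 30 to 50% 1, of the 62 at 50 to 70% 4, and of the 33 at 70% or more 3, while 0 of the 42 under 10% were called.

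Among the called windows the 2 largest differences were at windows that were nearly unmethylated in HCR and partly methylated in LCR. At 4051001 to 4052000 HCR samples had a lowest level of 0.677%, a median of 1.44% and a highest of 3.53%, and LCR samples ran from 27.9% over a median of 36.8% to 59.6%. The difference of the means was -37.8 points (SE 4.52), and 24.4 points of empty range lay between the lines. The LCR samples themselves stood in 2 sets, with replicates 4 to 7 between 27.9% and 29.4% and replicates 1, 2, 3 and 8 between 44.2% and 59.6%. At 4904001 to 4905000 HCR samples ran from 0% over a median of 1.31% to 11%, and LCR samples from 20.3% over 38.8% to 51.4%, a difference of -36.1 points (SE 3.78). LCR replicate 6 was the lowest of its line in both windows, while LCR replicates 4, 7 and 8 were the highest at 4904001 and LCR replicates 1, 2, 3 and 8 at 4051001. No other window was measured within 5 kb of either.

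The other windows lower in HCR covered the range from low to high methylation. At 3045001 to 3046000 HCR samples ran from 6.14% over a median of 9.41% to 14.2% and LCR samples from 26.8% over 30.8% to 49.1%, a difference of -23.8 points (SE 3.01). At 3555001 to 3556000 the HCR range was 16.4% to 36.3% with a median of 20.7%, and the LCR range 42.3% to 62.9% with a median of 50.04%, a difference of -27.8 points (SE 4.44). Both windows were the first of a stretch of adjacent windows, described further on.

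In 4 windows both lines had intermediate to high levels and HCR was lower by 12.1 to 15.7 points. At 2090001 to 2091000 HCR samples lay between 67.3% and 72.4% (median 68.99%) and LCR samples between 78.1% and 83.6% (median 81.7%). The SD between samples was 2.21 points in HCR and 1.74 in LCR, so that a difference of -12.1 points (SE 1.09) left the lines 5.74 points apart. At 2248001 to 2249000 the HCR samples had 53.8% to 66.7% (median 64.3%) and the LCR samples 72.1% to 84.6% (median 75.5%). The call at this window was lost without HCR replicate 2 and with only the samples numbered 1 to 6. At 4807001 to 4808000 the HCR samples had 45.8% to 53.5% (median 48.9%) and the LCR samples 60.1% to 70.2% (median 64.6%). The only called window after 5 Mb, at 6372001 to 6373000, had 57.8% to 63.9% in HCR (median 59.2%) and 68.5% to 76.5% in LCR (median 72.1%), a difference of -12.4 points (SE 1.41).

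Among the 8 windows higher in HCR, 3 were mainly methylated in that line. At 3746001 to 3747000 HCR samples ran from 58.6% over a median of 69.1% to 72.6% and LCR samples from 36.97% over 41.6% to 54.7%, a difference of 23.8 points (SE 3.1), the largest in this direction among called windows. At 2842001 to 2843000 the HCR samples had 66.8% to 78.3% (median 73.9%) and the LCR samples 47.3% to 57.5% (median 55.6%), a difference of 18.6 points (SE 2.06). At 4459001 to 4460000 they had 76.4% to 88.3% (median 81.4%) and 48.1% to 70.2% (median 63.96%), a difference of 20.3 points (SE 3.2). In each of these windows every HCR sample was above every LCR sample.

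The other 5 windows higher in HCR had low levels in LCR. At 2732001 to 2733000 HCR samples ran from 19.7% over a median of 34.8% to 37.2% and LCR samples from 5.11% over 11.2% to 17.3%. In the adjacent window at 2733001 to 2734000 the ranges were 16.8% to 34.1% (median 21.1%) and 3.43% to 10.9% (median 7.05%). At 3317001 to 3318000 the HCR samples had 19.03% to 52.7% (median 28.4%) and the LCR samples 8.21% to 15.98% (median 13.05%). The lines did not overlap in these 3 windows, although HCR samples were spread over 17.3 to 33.7 points. The call at 3317001 was lost without HCR replicate 4 and with only the samples numbered 1 to 6. The lines overlapped in the others. At 2843001 to 2844000 HCR samples ran from 25.1% over 37.5% to 56.2% and LCR samples from 12.2% over 16.8% to 27.9%. At 3425001 to 3426000 the levels were 8.43% to 25.5% (median 14.6%) and 5.04% to 10.4% (median 6.13%). Both of these calls were lost in 12 of the 14 fits that left out one sample, and after centring.

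**Figure D2:**
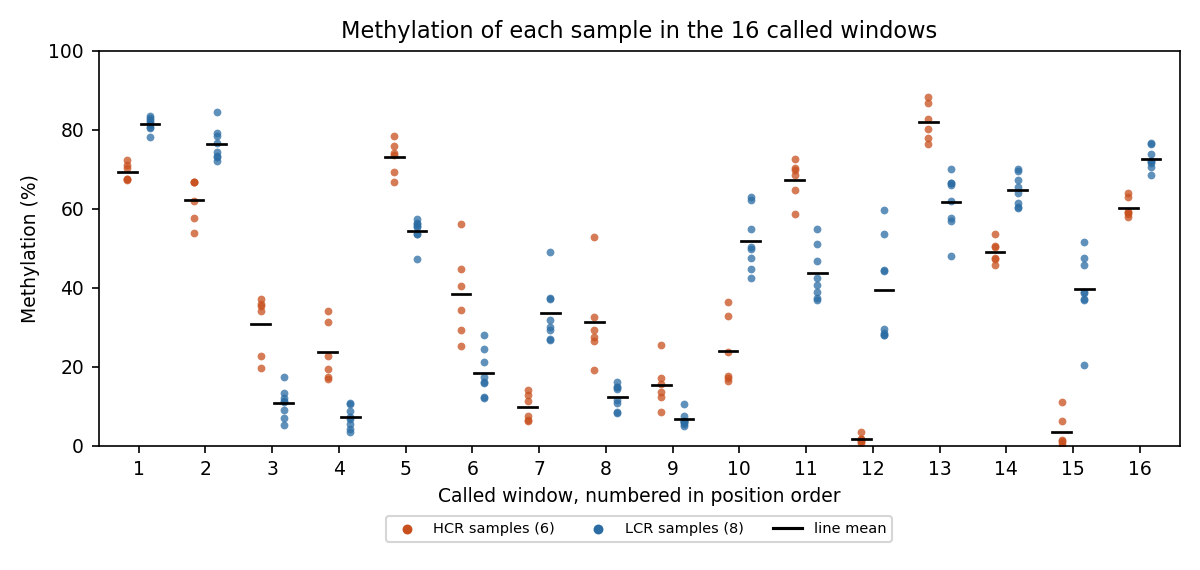
Methylation in percent of each HCR sample (orange, 6) and each LCR sample (blue, 8) in the 16 called windows, numbered in position order, with a black bar at each line mean. The points of the lines overlap in windows 6 and 9 only, and windows 12 and 15 show HCR near 0 against widely spread LCR samples.

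Outside the called windows 4 more were separated by line, 3 of them among the 96 that lacked a value (1.24% of such windows over the table). At 7532001 to 7533000 all samples had values and HCR had 28.97% to 40.2% against 17.5% to 28.5% in LCR, so the lines lay 0.48 points apart. At 5731001 to 5732000, where HCR replicate 6 lacked a value, HCR had 59.8% to 71.4% and LCR 78.2% to 90.5%. The largest difference of the interval, 41.3 points (SE 7.01), was at 8043001 to 8044000, where LCR replicate 7 lacked a value. There HCR samples had 32.5% to 64.8% (median 53.9%) and LCR samples 0% to 32.0% (median 3.35%). At 3772001 to 3773000 only 9 samples had a value, and the lines lay 0.158 points apart. With all windows of the table in the fit, 5731001 was called and 8043001 and 3772001 were not. The separated windows that lacked a value were higher in HCR in 2 cases (0.840% over the table) and lower in 1 (0.396%).

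The direction of the difference changed often along the interval. HCR had the higher mean in 118 of the 190 complete windows (62.1%), close to the share over the table (64.6%), and in 77 after each library was centred. The share over the table after centring was not computed. Taken over complete windows only, the signs formed 90 runs of like direction with a mean length of 2.11 windows, against 2.24 over the table, and 44 runs were single windows. Of neighbouring called windows, 7 of 15 pairs had like direction. The longest run over the table was 32 windows. In the interval the longest was 8 windows higher in HCR from 2732001 to 2845000. Its span of 113 kb held 4 called windows and differences from 0.121 to 20.1 points. The window at 2784001 within this span, read in 13 samples and so not counted, differed by -5.29 points. The HCR mean was 32.4% ± 14.3 (SD, n = 6) in the last window of that run, at 2844001 to 2845000, and the LCR mean 26.5% ± 7.85 (SD, n = 8). The next runs of at least 6 windows that held a call spanned 3366001 to 3512000 (6 windows higher in HCR, up to 22.5 points) and 3555001 to 3681000 (6 windows lower in HCR, down to -27.8 points). These spans also held windows of opposite sign that lacked a value in some sample, at 3482001 (-4.68 points, 9 samples) and at 3578001 (5.18 points, 12 samples). Long runs of small differences also occurred, as between 5191001 and 5480000, where 7 windows were higher in HCR by 0.043 to 1.53 points and 1 with 12 samples, at 5255001, differed by -0.413.

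Of the 16 called windows 8 lay in 6 stretches of at least 3 adjacent windows. These stretches show each difference only as far as adjacent windows had complete values. Most differences were large in the first or last window of their stretch, so how far they reached is unknown on that side. At 2732001 to 2736000 (stretch A in the plot of adjacent windows) the HCR means declined over 4 windows from 30.8% to 23.6%, 14.7% and 5.45%. The LCR means there were 10.7%, 7.17%, 5.26% and 4.08%, so the lines met within 4 kb at an unmethylated level. At 2842001 to 2847000 (stretch B) HCR declined from 73.02% to 38.4% and 32.4%, while LCR fell from 54.4% to 18.4% and then stood at 26.5%. Both lines were under 7% in the 2 windows that followed.

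The stretch at 3045001 to 3048000 (C) was lower in HCR throughout, with differences of -23.8, -8.42 and -20.8 points of which the middle window had the smallest. In the last of its windows, at 3047001 to 3048000, HCR samples ran from 27.4% to 56.2% and LCR samples from 51.9% to 73.7%, and this window was called after centring or quantile normalization. At 3315001 to 3319000 (D) HCR was higher by 3.61, 9.15, 18.8 and 7.98 points, and the next window measured, at 3321001, differed by -2.87. At 3423001 to 3427000 (E) HCR was higher by 11.2, 22.5, 8.77 and 4.32 points. The largest of these, at 3424001 to 3425000, was not called, and its HCR samples ran from 16.1% to 54.4%. The stretch at 3555001 to 3558000 (F) differed by -27.8 points in its first window and by -3.72 and -1.96 in the next ones.

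**Figure D3:**
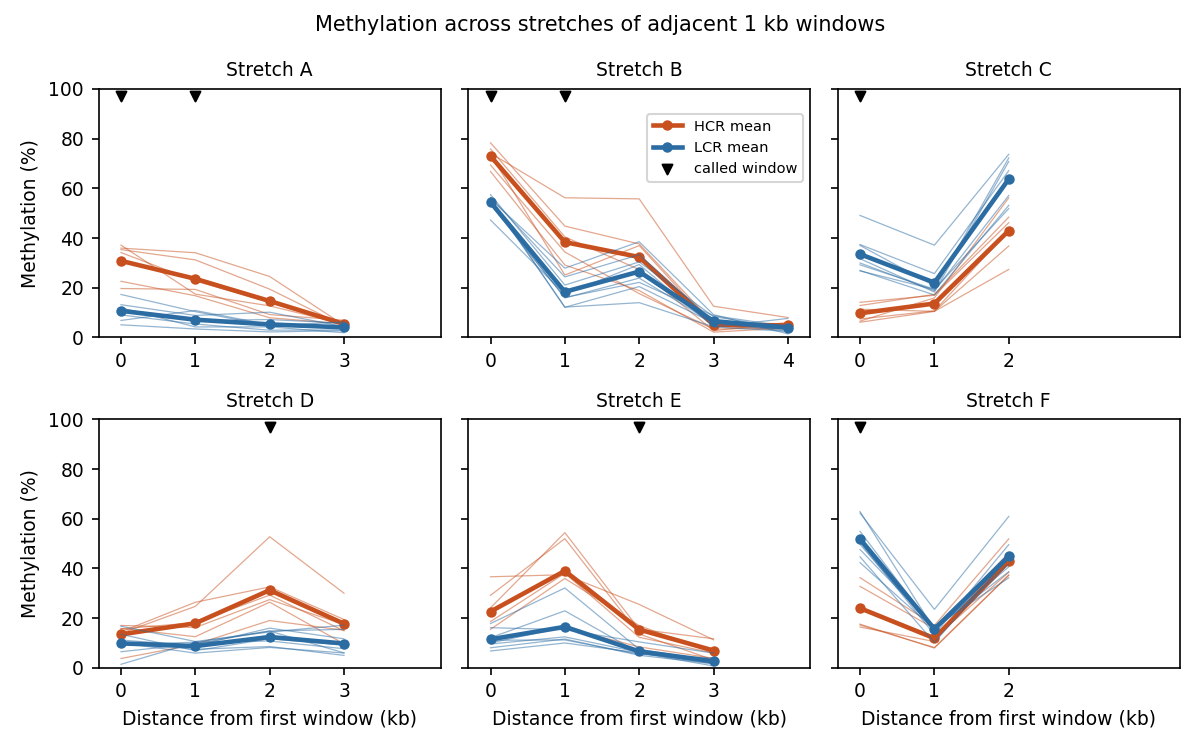
Methylation in percent across the 6 stretches of adjacent 1 kb windows that hold a called window, against distance from the first window in kb. Thin lines are samples and thick lines with points the line means (HCR orange, LCR blue), and black triangles mark called windows. HCR lies above LCR in every window of stretches A, D and E and below it in C and F, and in B the lines cross where both are under 7%.

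Not every difference extended to the adjacent window. At 2247001 to 2248000, beside the called window that was lower in HCR by 14.2 points, HCR was higher by 18.2 points (67.2% ± 15.3 against 49.04% ± 8.71), and this window was not called. At 3745001 the difference was 2.22 points next to one of 23.8. At 4806001 it was 8.55 points next to -15.7. At 4460001, where 12 samples had a value, it was -25.1 points (SE 11.97) next to 20.3. The HCR samples of that window ran from 22.2% to 86.9%. Over all 52 pairs of adjacent complete windows 31 (59.6%) had like direction, against 58.0% over the table.

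The deviations of samples from their line mean, which the line difference does not enter, were compared between windows. They were more correlated between adjacent windows of the interval than in the rest of chromosome 2 or over whole chromosomes. This was less clear over all pairs 1 to 10 kb apart. Other intervals of like size were not compared. For each window the line mean was subtracted from every sample, and Pearson's r over the 14 samples was computed for pairs of windows. These values are descriptions: the windows of a pair were read in the same libraries and pairs share windows. For all pairs of windows 1 to 10 kb apart, at every level, the median r was 0.074 in the interval (140 pairs), 0.0451 in the rest of chromosome 2 and 0.0404 over the table. With mean levels of 10 to 90% these medians were 0.152 (58 pairs), 0.0462 and 0.0586, adjacent pairs included. The restriction to adjacent windows, the level classes and the division at 5 Mb were chosen after seeing the data. The class of 10 to 90% used the mean over all 14 samples. Some windows entered it only through higher HCR levels, as at 2733001 (means 23.6% in HCR, 7.17% in LCR) and 3425001 (15.4% and 6.62%). The line difference thus entered the choice of windows in this class. Pairs of every level had no such limit. For adjacent windows with mean levels of 10 to 90%, the median r was 0.34 in the interval (25 pairs, quartiles 0.0813 and 0.761) and 0.0665 in the rest of chromosome 2 (679 pairs, quartiles -0.188 and 0.325). Over the chromosomes this median ran from 0.0477 on chromosome 13 to 0.156 on X. Within HCR alone it was 0.523 in the interval and 0.0642 in the rest of chromosome 2, and within LCR alone 0.273 and 0.0917. Without HCR replicate 3 the interval had a median of 0.282, and without LCR replicate 7 one of 0.441. For adjacent windows of every level the medians were 0.241 (52 pairs) and 0.0889.

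The higher correlation was seen between adjacent windows and before 5 Mb, not over larger distances. For windows over 1 to 10 kb apart the median r was 0.0323 (33 pairs), for over 10 to 100 kb 0.0171, and for over 100 kb to 1 Mb 0.0341, against 0.042, 0.0435 and 0.0403 in the rest of the chromosome. Before 5 Mb adjacent windows of 10 to 90% had a median of 0.41, with 18 of 21 pairs above 0. After 5 Mb there were only 4 such pairs, with a median of 0.0535. At every level the median was 0.41 over 33 pairs before 5 Mb and 0.0415 over 19 pairs after it. In stretches A to F the median r of adjacent windows was 0.51 to 0.761. In the 7 other stretches of at least 3 windows it was -0.0173 to 0.601. Stretches A to F were chosen for a call on the line difference, and the 2 sets were not matched in level. The lowest of the other stretches, at 8049001 to 8052000, had means of 1.49% in HCR and 1.40% in LCR. The one at 5148001 to 5151000, with means of 77.0% and 77.4%, had 0.0695. The highest median of the 7 was at 2072001 to 2075000, where HCR was higher by 0.518 to 17.5 points. Between the 16 called windows themselves the median r was 0.0865 over all 120 pairs (quartiles -0.135 and 0.275). Neighbouring called windows were a median of 191 kb apart, and most of these pairs farther.

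**Figure D4:**
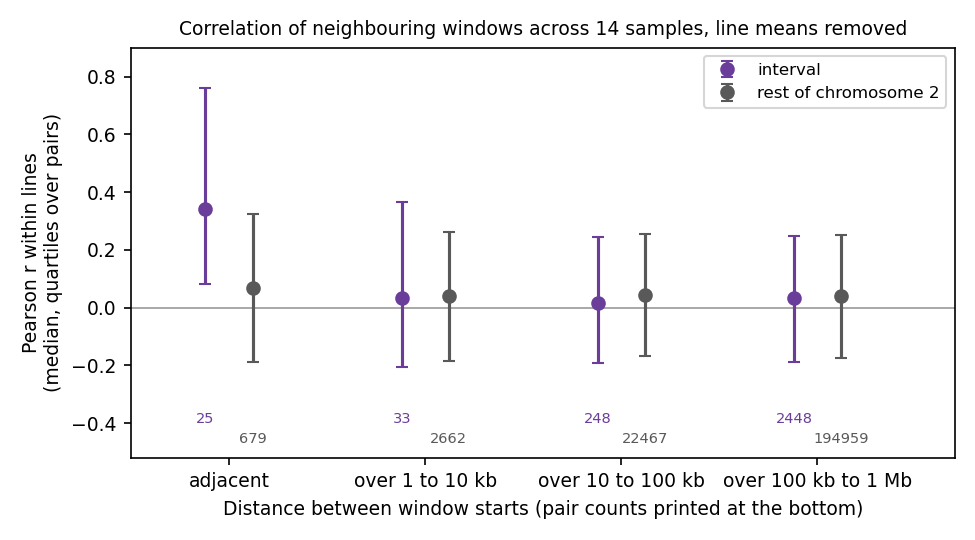
Pearson's r over 14 samples after removal of the line means, for pairs of windows with mean levels of 10 to 90%, by distance between the windows. The mean level is that over all 14 samples, so the line difference enters the choice of windows. Points are medians and bars quartiles over pairs, purple for the interval and grey for the rest of chromosome 2, with the number of pairs at the bottom. The medians differ at adjacent windows (0.34 and 0.0665) and lie between 0.0171 and 0.0435 at all larger distances.

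Some samples were repeatedly the lowest or the highest of their line over the 23 windows of stretches A to F. These counts are a description. Adjacent windows of a stretch were correlated, so they are not separate observations, and like counts over the table were not computed. HCR replicate 3 was the lowest HCR sample in 12 of them, and HCR replicates 4 and 1 were the highest in 9 and 7. LCR replicate 1 was the highest LCR sample in 10 and LCR replicate 3 the lowest in 8, while LCR replicate 6 was the highest in 7 and the lowest in 5. HCR replicate 3 also had the lowest mean of the HCR samples over all complete windows of the table (34.2%) and lacked the most values of its line in the interval (31 windows). HCR replicate 4 had the highest mean (37.1%). The part of these library values in the correlation was not tested, beyond the medians without single samples. With each library centred the median r of adjacent windows was 0.308.

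At the called windows few samples lay nearer to the other line. These windows were called for a line difference in the same samples, so this is largely set by their choice. It is given as a description only. In 10 of the 16 windows every sample lay nearer to the mean of its own line, computed without it, than to that of the other. HCR replicate 3 was nearer to LCR in 4 windows, at 2732001, 2843001, 3317001 and 3425001, all of which were higher in HCR. HCR replicate 6 was nearer to LCR at 2843001. LCR replicate 6 was nearer to HCR at 2843001 and 4904001, and LCR replicate 7 at 3746001. The other 10 samples were nearer to their own line in all 16 windows.

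The spread within lines was slightly smaller in the interval than over the table. The median SD between samples was 3.89 points in HCR and 3.83 in LCR, against 4.4 and 4.34 over the table. HCR had the larger SD in 93 of the 190 windows (48.9%, against 52.9% over the table). In windows of 10 to 30% the median SD within lines was 5.7 points in the interval and 5.83 over the table, while the median size of the line difference was 9.15 and 2.74 points. At 30 to 50% this size was smaller in the interval (2.18 points, against 3.17). It was larger under 10% (0.69, against 0.339), at 50 to 70% (3.21, against 2.5) and at 70% or more (2.05, against 1.73). The median SD was larger in the interval under 10% (0.94 points, against 0.784) and at 50 to 70% (5.74, against 5.67). It was smaller at 30 to 50% (5.72, against 6.97) and at 70% or more (3.18, against 3.89).

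In 5 windows the HCR samples were divided into 2 sets at least 15 points apart, each of at least 2 samples. This limit was chosen after seeing the data, and the LCR sets at 4051001 lay just under it. Such sets occurred in 2.63% of windows in HCR (1.56% over the table) and in 0 of 190 in LCR (0.758% over the table). At 2247001 HCR replicates 1 and 5 had 79.1% to 92.98% and the others 55.1% to 60.98%. At 2286001 to 2287000 HCR replicates 1 and 6 were low, at 51.8% to 60.6%, and the others had 79.7% to 85.5%, as LCR did (74.7% to 82.8%). HCR replicates 1 and 2 formed the high set at 2522001 to 2523000 (29.3% to 32.03% against 5.65% to 13.7%) and at 7908001 to 7909000 (76.3% to 79.5% against 42.5% to 58.4%). At 8001001 to 8002000 HCR replicates 2 and 3 had 64.1% to 65.6% and the others 17.1% to 44.7%. The sets thus differed from window to window, except at 2522001 and 7908001, and 0 of these windows were called.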

How the data were processed

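RRBS libraries were made from 100 ng of DNA of each sample, per the labels' protocols. Trim Galore 0.6.10, Bismark, Bowtie2 and rn7 are named in the submitters' processing notes. The authors deposited the percent methylation of each library in 1000 bp windows, without counts, so depth is unknown and errors are spreads between samples. No source used here gives the coverage minimum. All 14 sample columns were matched by library name, and 0 were left unused.

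Levels were divided by 100, transformed to log2((level + 0.01)/(1 - level + 0.01)) and compared between lines with limma 3.58.1 in R 4.3.3 (variance trend, all 135802 complete windows, Benjamini-Hochberg, called at an adjusted p under 0.05). Differences in points are untransformed. Counts, runs and correlations used Python 3.11.15, numpy 2.4.6 and pandas 2.3.3. The windows named are all called windows, up to 30, separated windows, and those at the ends of the interval and of the longest run; others were named after their values were seen. The members and lists were chosen with earlier results of these data known. Alternatives are given in the closing section. Lists of genes and cell type markers were not used.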

Additional observations from a re-analysis of the deposited data

Results flagged for a closer look

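Of 38 sets of values tested for 1 outlying sample, 6 contained such a sample. Each line gave a set for the 16 called windows and the separated window at 7532001. The number of windows without a value and the mean level of the interval were also tested per line. About 1 set in 20 contains such a sample by chance if values are normally distributed. These percentages and counts are bounded, so that rate may not hold for them. A sample was taken as outlying when its distance to the nearest other sample of its line exceeded Dixon's limit as a share of the range. In the window at 2842001 LCR replicate 2 had 47.3%, the nearest other LCR sample 53.6% and the line a median of 55.6%. At 3425001 LCR replicate 8 had 10.4%, the next highest 7.45% and the line a median of 6.13%. At 4051001 HCR replicate 2 had 3.53%, the next highest 1.7%, so the difference from its line was small beside the gap to LCR. LCR replicate 6 had 20.3% at 4904001 and the nearest LCR sample 36.9%. HCR replicate 4 had 40.2% at 7532001 and the next highest 33.0%. LCR replicate 7 lacked a value in 49 windows of the interval and the next LCR sample in 23.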

How the results depend on the processing

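The 16 calls of the interval were between 12 and 17 except for 3 with a minimum difference of 25 points, all lower in HCR, and 2 with the replicate block on the 12 samples numbered 1 to 6, those at 4051001 and 4904001. Without the block these 12 samples gave 12 calls. Replicate numbers share no stated litter or day, deviations of same-numbered samples correlated at -0.0317 to 0.0336, and 0 of 6 HCR samples correlated best with its own number. Fits without one sample gave 13 to 17 calls, 15 to 19 separated windows, 110 to 121 windows higher in HCR and a longest run of 7 to 9. All 16 called windows kept their direction in every setting, and 12 kept the call outside the block and the 25-point minimum. Centring moved the median log2 logit difference of all windows from 0.0846 to -0.0173 and gave 77 windows of the interval higher in HCR in place of 118; quantile normalization gave 93. The line difference in mean level was 0.36 points, -0.758 after subtraction of each library's mean over the table, -0.319 for the median over windows (48.03% against 48.34%), and 0.0763 to 0.731 without single samples. The median r for windows of every level 1 to 10 kb apart, adjacent ones included, was 0.074, with 0.179 after centring, 0.101 on log2 logit levels, 0.152 for windows of 10 to 90% and 0.0635 to 0.121 without single samples. For adjacent windows of 10 to 90% the median was 0.34, with 0.241 for every level, 0.284 as Spearman's rho and 0.282 to 0.441 without single samples; these settings were chosen after seeing the data. The difference in windows without a value was 0.458 and ran from -2.57 to 5.26 without single samples, changing sign without HCR replicate 1 or 6 (-0.375), HCR replicate 3 (-2.57), LCR replicate 1 or 3 (-1.74), LCR replicate 4 (-1.31) or LCR replicate 5 (-0.452). The median SD within lines was 4.42 points and 4.06 to 4.46 without single samples. The cause of these changes was not tested. Without counts, the counting error of a single value cannot be given.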
